A study of Mus musculus with 6 samples.

Results

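The glucocorticoid receptor gene Nr3c1 and 7 genes that the receptor is known to induce, Fkbp5, Tsc22d3, Dusp1, Zbtb16, Klf9, Sgk1 and Errfi1, were examined for open chromatin in white blood cells of mice. A peak was assigned to a gene when its summit, the highest point of the peak, lay in the gene body or within 30 kb of the gene's 5′ end. The peaks of 6 libraries that overlapped were merged into 62876 regions, and 66 of these regions belonged to the 8 genes. A peak was present in all 6 libraries at 31 of the 66 regions (47.0%), beside 38.1% of all regions.

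Glucocorticoids are steroid hormones that the adrenal gland releases on a daily rhythm and under stress. In the cytoplasm, chaperones hold the receptor ready for hormone, and the bound receptor moves to the nucleus, where it binds glucocorticoid response elements (GREs) or acts through other DNA-bound factors. In white blood cells it is known for damping inflammation and for shifting cells between blood and tissues.

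The study compared C57BL/6J mice kept in normal oxygen (control) with mice in high-altitude de-acclimatization (HADA), that is, mice returned to normal oxygen after weeks in a hypobaric chamber. Male mice were used in both groups per the study's methods, and no transgene or drug is given for the accessibility samples. ATAC-seq, in which Tn5 transposase cuts open DNA, was run with 3 libraries in each group. The labels name peripheral blood. The study's methods name leukocytes left after red cell lysis, while its results text calls the cells mononuclear. The sources do not say on which day the blood for ATAC-seq was drawn, or whether each library came from a single animal. The p-values therefore measure the spread between these libraries.

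The lists held 34045 to 41475 peaks for control and 44044 to 45799 for HADA. Summit pileup, the number of reads or fragments stacked at a summit, had a median over regions shared by all libraries of 49 to 58 for control and 77 to 92 for HADA. For comparison between libraries, each pileup was divided by that median, and the result is called relative height, so 1 is the median shared region of a library. The interval that counting alone would give cannot be stated, since reads per region were not analysed here.

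No sorting of the cells is described, and marker genes differed between the groups. The relative heights of the peaks at the starts of 10 B cell genes summed to 6.17, 4.58 and 0.776 across control 1, 2 and 3 and to 13.8, 15.2 and 14.6 across HADA 1, 2 and 3. The sum over 10 neutrophil genes was 5.48, 4.76 and 12.2 in the controls and 2.02, 1.32 and 0.938 in the HADA libraries. Over 8 monocyte genes it was 4.91, 4.42 and 6.31 in the controls and 2.78, 2.64 and 2.46 in the HADA libraries. Treml4 was the largest term of the monocyte sum in each control library, at 1.74, 1.71 and 3.06, against 0.87, 0.584 and 0.506 in HADA 1, 2 and 3. Ly6c2, a marker of classical monocytes, went the other way, at 0.69, 0.564 and 0.571 in the controls and 1.07, 1.05 and 0.938 in the HADA libraries. The groups did not overlap for the sums of these 3 cell types, with an exact permutation p of 0.1 each, the smallest that 3 libraries against 3 can give.

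Control 3 stood apart, with the lowest B cell sum and the highest neutrophil sum of the 6 libraries. Its sum over 10 housekeeping genes was also the highest, at 59.1, against 44.1 and 38.5 in the other control libraries and 37.4 to 40.8 in HADA libraries. The T cell sums of the groups overlapped, at 8 to 10.0 for control and 8.87 to 9.55 for HADA. Cd3d was the largest term of this sum in every library, at 4.76, 4.27 and 7.39 in the controls and 5.05, 3.79 and 4.12 in the HADA libraries. Cd3e and Lck were higher in every HADA library than in every control library, and no gene of the list was lower in this way. A start peak in all 6 libraries was found for 3 of 10 B cell, 5 of 10 T cell, 4 of 10 neutrophil, 5 of 8 monocyte and 2 of 8 natural killer cell genes. The defining markers Cd4, Cd8a, Ly6g and Ccr2 had no start peak in any library. Sums over 8 eosinophil and basophil and 9 erythroid and platelet genes stayed between 0 and 1.45, and 7 and 5 of those genes, respectively, had no start peak in any library. Low as they were, both sums were higher in every HADA library than in every control library (exact permutation p = 0.1 each). The eosinophil and basophil sum rested on a single gene. In these unsorted samples, fewer cells of a type and less open chromatin per cell cannot be told apart.

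**Figure D1:**
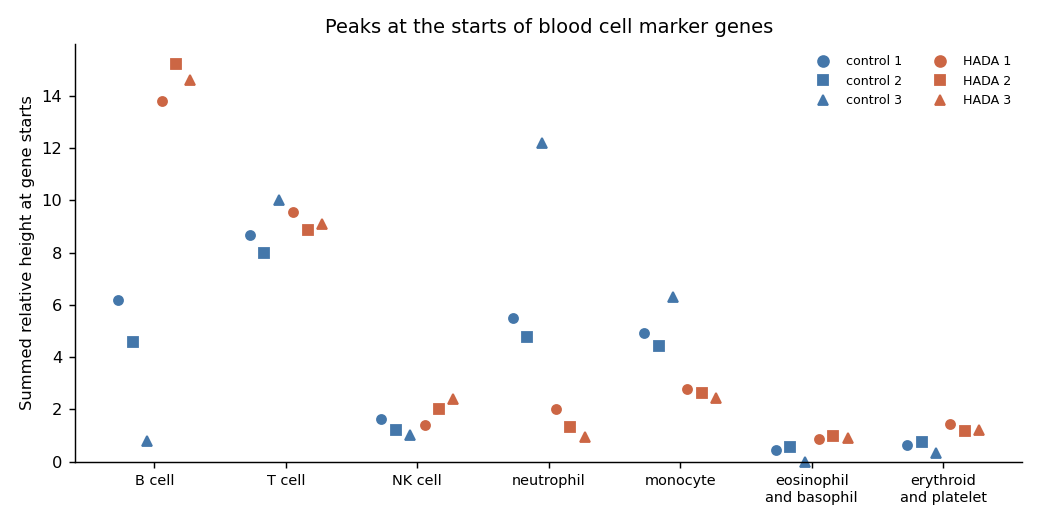
Summed relative height of the peaks at the starts of marker genes (vertical axis, multiples of the median shared region) for 7 blood cell types, with 1 point per library. B cell points of HADA libraries lie at 13.8 to 15.2, above all control points, and neutrophil points at 0.938 to 2.02, below all control points, with control 3 highest at 12.2.

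The open regions of the 8 genes held many GREs. The element was searched as GNACA, 3 bases of any kind, TGTNC, a spelling that reads the same on both strands. A match lay in 11 of the 66 regions (16.7%), and in 1152 of all 62876 regions (1.83%). The median region was 873.5 bp wide for the 8 genes and 818 bp wide for all regions. Per 100 kb of open region, there were 18.6 matches for the 8 genes and 2.09 for all regions. Per 100 kb of the whole search windows of the 8 genes, open or not, there were 3.16, and over the main chromosomes 1.65. These genes are textbook targets of the receptor, so the comparison is a description, and a match does not show that the receptor was bound.

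**Figure D2:**
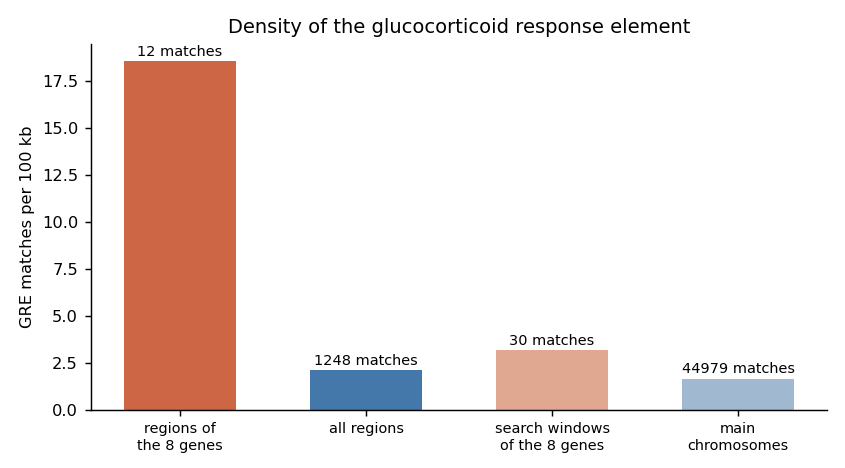
Matches to the GRE spelling per 100 kb (vertical axis, from 0) in the open regions of the 8 genes, in all open regions, in the whole search windows of the 8 genes and on the main chromosomes, with the number of matches above each bar. The open regions of the 8 genes reach 18.6 per 100 kb, and the other bars lie between 1.65 and 3.16.

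Fkbp5 had 5 of the 12 matches, Dusp1 had 3, Zbtb16 had a pair that overlap, and Klf9 and Sgk1 had 1 each. No region of Nr3c1, Tsc22d3 or Errfi1 held one. The stricter spelling AGAACA, 3 bases of any kind, TGTTCT had 16 matches in all regions of the genome together, and 2 of these lay in introns of Fkbp5. Both spellings are printed here in GRCm39 sequence, with the GNACA spelling in capitals, since these are the sites at which receptor binding would be looked for first. The first 2 carry the strict spelling, whose outer bases are the letters on either side of the capitals.
Fkbp5, intron, 43275 bp downstream of the start, chr17:28661374-28661426, plus strand: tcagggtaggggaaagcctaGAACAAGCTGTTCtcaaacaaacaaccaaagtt
Fkbp5, intron, 65618 bp downstream of the start, chr17:28639276-28639328, plus strand: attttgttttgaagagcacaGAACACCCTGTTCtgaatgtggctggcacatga
Fkbp5, intron of longer transcripts, 27766 bp upstream of the canonical start, chr17:28732857-28732909, plus strand: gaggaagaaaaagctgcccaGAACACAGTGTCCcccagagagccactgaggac
Dusp1, 26942 bp upstream of the canonical start, chr17:26754283-26754335, plus strand: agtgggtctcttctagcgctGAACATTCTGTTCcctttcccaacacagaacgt
Zbtb16, intron, 95950 bp downstream of the start, chr9:48651544-48651596, plus strand: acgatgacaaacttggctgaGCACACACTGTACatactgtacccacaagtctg
Klf9, 4845 bp upstream of the start, chr19:23112437-23112489, plus strand: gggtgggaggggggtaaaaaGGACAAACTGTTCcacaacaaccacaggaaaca
Sgk1, intron of longer transcripts, 105167 bp upstream of the canonical start, chr10:21765151-21765203, plus strand: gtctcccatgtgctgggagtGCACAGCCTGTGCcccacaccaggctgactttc

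The distances are those of the summit of the region. A match within 100 bp of the tallest summit was found at 1 of the 66 regions, the third Fkbp5 region above, and at 0.402% of all regions. The other matches lay 126 to 879 bp from the tallest summit. At the first Fkbp5 intron region, chr17:28661387-28662117, a peak was present in control 3 with a pileup of 13 and in HADA 1, 2 and 3 with pileups of 19, 30 and 24. The other intron region, chr17:28639210-28640143, was low in every library, with relative heights of 0.224, 0.164 and 0.265 across control 1, 2 and 3 and 0.152, 0.143 and 0.259 across HADA 1, 2 and 3. The groups overlapped there, with a log2 difference of -0.26 ± 0.33 (SE), limma adjusted p = 0.538. The region with the match near its summit, chr17:28732763-28733147, had a peak in HADA 1 and HADA 2 alone, with pileups of 51 and 50.

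Heights were compared with limma over all 23970 regions with a peak in all 6 libraries, at a Benjamini-Hochberg adjusted p under 0.05. Of the 31 such regions of the 8 genes, 2 were higher in HADA (6.45%) and 12 were lower (38.7%). Over all 23970 regions, 18.4% were higher and 24.5% lower. Every HADA library lay above every control library at 2 of the 31 and below at 13, beside 29.3% and 31.2% of all shared regions. The median log2 difference, HADA minus control, was -0.32 for the 31 regions and -0.04 for all regions. Calls depended on where a region lay. Within 1 kb of an annotated start, 22.0% of all shared regions were higher and 10.5% lower, with a median of 0.12. Elsewhere, 14.2% were higher and 40.7% lower, with a median of -0.55. Of the 8 genes' regions, 3 of the 14 at starts and 11 of the 17 elsewhere were called in either direction.

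The call also depended on the scale. When pileups were divided by the genome-wide background of each library instead, the median difference of all regions was 0.34 on the log2 scale instead of -0.04, and the share of called regions that were higher in HADA went from 43.0% to 64.6%. On that scale 2 regions of the 8 genes were higher and 8 lower, beside 32.2% higher and 17.6% lower among all regions. The deposited fold of a summit over its local background gave 3 higher and 1 lower by its rank, beside 7.65% higher and 5.82% lower among all regions. Without control 3, the counts for the 8 genes were 3 higher and 13 lower, beside 19.9% and 23.4% of all regions in that fit. Without HADA 2, they were 1 and 6, beside 5.60% and 12%.

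**Figure D3:**
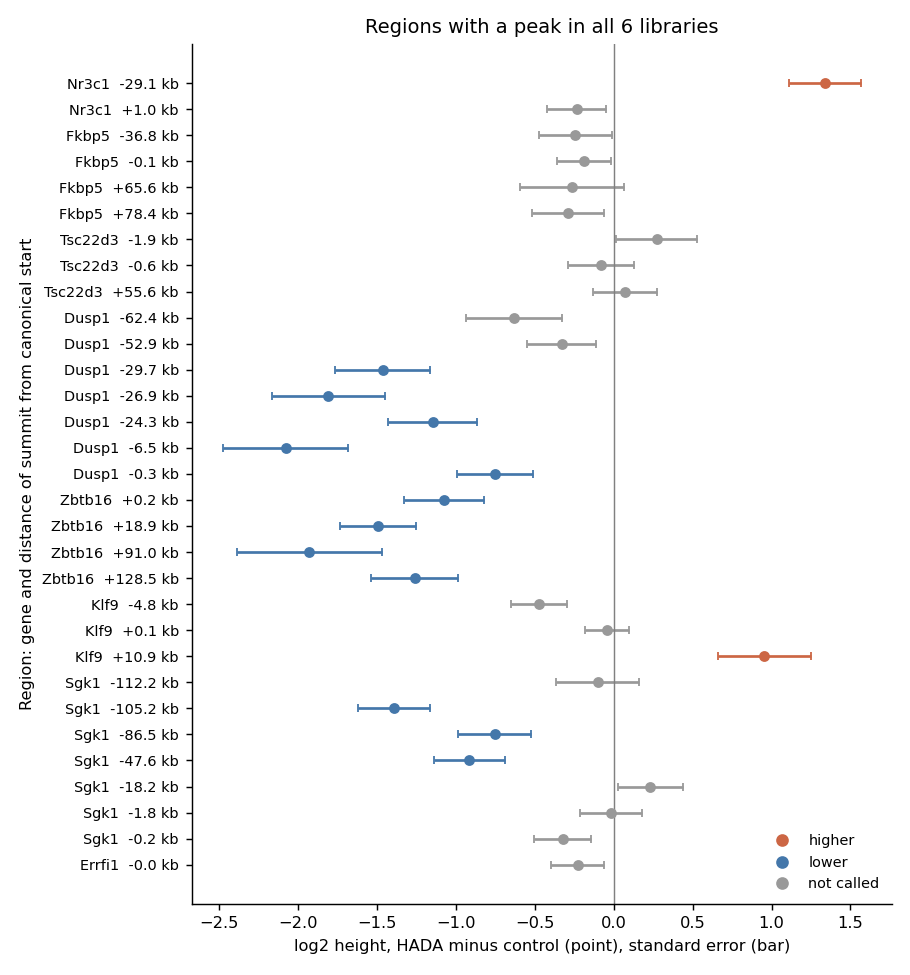
Log2 difference in relative height, HADA minus control (horizontal axis, point) with its standard error (bar), for each of the 31 regions of the 8 genes with a peak in all 6 libraries. Rows give the gene and the distance of the summit from the canonical start in kb. The 12 regions called lower belong to Dusp1, Zbtb16 and Sgk1, and the 2 called higher to Nr3c1 and Klf9.

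Nr3c1 encodes the receptor itself. Its annotated record spans chr18:39543598-39652474 on the minus strand, and the canonical start lies 28704 bp inside the 5′ end of the record. At the cluster of starts around the canonical start, chr18:39622060-39624893, the chromatin was wide open, with relative heights of 4.6, 3.78 and 6.1 across control 1, 2 and 3 and 4.43, 3.91 and 3.77 across HADA 1, 2 and 3. The groups overlapped, and the log2 difference was -0.23 ± 0.19 (SE), limma adjusted p = 0.327. A second region covered the far 5′ end of the record, chr18:39651837-39653585, 29143 bp upstream of the canonical start. Here the relative heights were 0.914, 0.782 and 0.531 in the controls and 1.61, 2 and 1.9 in the HADA libraries, with every HADA library above every control library. The mean was 1.84 ± 0.203 for HADA against 0.742 ± 0.195 for control (SD, n = 3 each). The fitted level was 2.53-fold higher, a log2 difference of 1.34 ± 0.23 (SE), limma adjusted p = 0.00629. Leaving out any library kept this call, with differences from 1.06 to 1.52. The local background rose beside the summit, being 6.67, 5.39 and 3.11 in the controls and 16.4, 16.4 and 16.5 in the HADA libraries, and the rank of the fold did not pass, at a difference in normal scores of 0.37, adjusted p = 0.12.

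In an intron of Nr3c1, a weaker region at chr18:39585691-39586692, 37675 bp downstream of the canonical start, moved the same way. Its pileups were 11 and 10 in control 1 and 2 and 43, 44 and 37 in HADA 1, 2 and 3, and control 3 had no peak. Among regions with a peak in at least 2 libraries of each group, its log2 difference was 1.42 ± 0.26 (SE), limma adjusted p = 0.00677. In that fit, 19.5% of 31064 regions were higher and 23.1% lower. A library without a peak at a region did not enter the fit there. If its height was low, leaving it out raised the mean of its group. The fit also called a pair of regions of the 8 genes lower, neither with a peak in control 1. They were chr10:21781495-21782005 in an intron of Sgk1, with pileups of 87 and 117 in control 2 and 3 and 98, 84 and 103 in HADA 1, 2 and 3 (-0.77 ± 0.22 (SE), limma adjusted p = 0.0263), and chr17:28746833-28747381 upstream of Fkbp5, with 45 and 48 and with 54, 41 and 49 (-0.64 ± 0.22 (SE), limma adjusted p = 0.0439). The 2 HADA-higher regions of Nr3c1 were high in the libraries with high B cell sums, and control 3, with the lowest B cell sum, was lowest at the first and had no peak at the second. The part of the cell mix in this result was not tested. The other 6 regions of Nr3c1 had a peak in 1 to 4 libraries and pileups of 9 to 34.

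**Figure D4:**
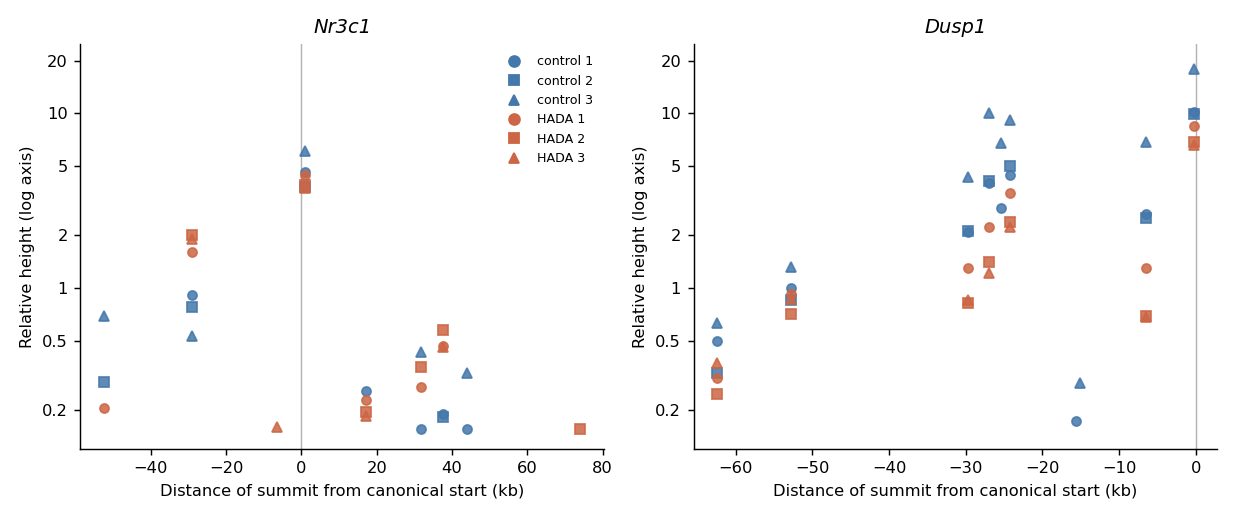
Relative height (vertical log axis) of each peak of Nr3c1 (left) and Dusp1 (right) against the distance of the region's tallest summit from the canonical start in kb (horizontal axis), with 1 point per library and no point where a library had no peak. At Nr3c1 the HADA points lie above the control points at -29.1 kb and overlap at the canonical start, and at Dusp1 they lie below the control points from -29.7 to -0.3 kb.

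The start profile of Nr3c1 over the 6 libraries was most like those of C87436, Sirt7 and Cntrl, with root mean square distances of 0.0271, 0.0287 and 0.0291 on the log2 scale after each gene's mean was removed. None of the 3 start regions differed between groups, with limma adjusted p of 0.314, 0.404 and 0.339. This follows from how they were picked, since the Nr3c1 start was not called either.

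Fkbp5, a co-chaperone that lowers the receptor's affinity for hormone and is induced by it in a feedback loop, had 17 regions, the most of the 8 genes, and 4 of them were shared by all libraries. The canonical start of Fkbp5, chr17:28704137-28705819, lies 32369 bp inside a record that spans chr17:28618058-28737521 on the minus strand. Relative heights at this start were 1.91, 1.6 and 2.12 across control 1, 2 and 3 and 1.88, 1.49 and 1.57 across HADA 1, 2 and 3, and the groups overlapped, with a log2 difference of -0.19 ± 0.17 (SE), limma adjusted p = 0.394. The tallest region assigned to Fkbp5, chr17:28741427-28743290, lies 4389 bp before the record, where the genes E230001N04Rik and Gm20109 are also annotated. It reached 5.47, 4.84 and 9.35 in the controls and 5.37, 5.13 and 5.42 in the HADA libraries, and differed by -0.24 ± 0.23 (SE), limma adjusted p = 0.41. An intron region near the 3′ end of the gene, chr17:28626168-28627377, was also tall, at 2.5, 2.24 and 4.22 in the controls and 2.5, 2.23 and 2.31 in the HADA libraries, and differed by -0.29 ± 0.23 (SE), limma adjusted p = 0.318. None of the 4 shared regions of Fkbp5 was called, and control 3 was the tallest library at each of them. Of the 13 regions that lacked a peak in some library, 1 rested on a summit whose 50 bases occur 959 times in the genome, and whether its reads could be placed was not tested.

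Tsc22d3, which encodes the glucocorticoid-induced leucine zipper GILZ, had 3 shared regions, all at annotated starts. The tallest, chrX:139442644-139444273, lies at the start of shorter transcripts and had relative heights of 2.64, 2.73 and 4.29 across control 1, 2 and 3 and 3.64, 3.03 and 3.25 across HADA 1, 2 and 3, with a log2 difference of 0.07 ± 0.20 (SE), limma adjusted p = 0.79. At the canonical start, chrX:139499491-139500505, the heights were 0.879, 0.909 and 1.27 in the controls and 1.05, 0.831 and 0.975 in the HADA libraries, and they differed by -0.08 ± 0.21 (SE), limma adjusted p = 0.77. The groups overlapped at both, and at the third start, chrX:139501226-139501899, where the difference was 0.27 ± 0.26 (SE), limma adjusted p = 0.407. Tsc22d3 had 3 peaks in each control library and 5, 4 and 5 in the HADA libraries.

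The added HADA peaks of Tsc22d3 included chrX:139441205-139441901 in an exon annotated as untranslated, with pileups of 101, 83 and 115 in HADA 1, 2 and 3 and no peak in any control library. Sgk1 had the other region of this kind, chr10:21871382-21871950, in a coding exon, with pileups of 59, 57 and 67. These 2 regions were 3.03% of the 66, beside 7.01% of all regions with a peak in all HADA and no control libraries. No region of the 8 genes had a peak in all control and no HADA libraries, beside 1.88% of all regions. Both HADA-only peaks sit beside a taller peak, where the local background was 38.4 to 52 at Tsc22d3 and 27.4 to 33.3 at Sgk1. At the local background of their nearest peak, the control libraries would have needed pileups of 46, 37 and 49 at Tsc22d3. The same relative height as in HADA would have given them 69.5, 65.9 and 58.7, above the need in each. At Sgk1 the needs were 42, 36 and 42 and the pileups at equal relative height 42.7, 40.5 and 36.1, so control 3 could not have shown the peak. The narrowest peak of a list was 286 to 307 bp wide, and a narrower summit may have gone unlisted.

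Dusp1 encodes a phosphatase that switches off MAP kinases and is a main anti-inflammatory target of the receptor. Its record spans chr17:26724564-26781102 on the minus strand, while the canonical transcript is 2.93 kb long and starts 53609 bp inside it. The canonical start region, chr17:26726619-26728655, was the tallest region of the 8 genes, with relative heights of 10.2, 9.93 and 18.1 across control 1, 2 and 3 and 8.46, 6.88 and 6.59 across HADA 1, 2 and 3. Every HADA library was lower than every control library, and the log2 difference was -0.75 ± 0.24 (SE), limma adjusted p = 0.0318. This call did not hold when pileups were divided by the background (-0.37, adjusted p = 0.139) or when any HADA library was left out. The rank of the fold pointed the other way (0.65, adjusted p = 0.0533), with a local background of 120, 106 and 200.1 in the controls and 119, 74 and 77.9 in the HADA libraries. The start region furthest upstream, chr17:26779693-26781016, overlapped between groups at 1, 0.855 and 1.33 in the controls and 0.924, 0.714 and 0.864 in the HADA libraries, with -0.33 ± 0.22 (SE), limma adjusted p = 0.241.

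Upstream of the canonical start, 4 regions of Dusp1 were lower in HADA. The largest difference of the 31 regions was at chr17:26733405-26734217, 6478 bp upstream, with relative heights of 2.67, 2.51 and 6.84 in the controls and 1.3, 0.688 and 0.679 in the HADA libraries. It fell by 2.08 on the log2 scale (SE 0.39, limma adjusted p = 0.00703), a level 4.22-fold lower in HADA. A cluster of 3 regions followed between 24284 bp and 29691 bp upstream. At chr17:26754021-26754815, which holds the GRE shown above, heights were 3.98, 4.11 and 10.0 in the controls and 2.23, 1.4 and 1.22 in the HADA libraries, and the log2 difference was -1.81 ± 0.36 (SE), limma adjusted p = 0.0076. Its neighbours chr17:26756851-26757465 and chr17:26750458-26752254 differed by -1.46 ± 0.30 (SE), limma adjusted p = 0.0082 and by -1.15 ± 0.28 (SE), limma adjusted p = 0.0134. The second of these calls was lost without HADA 2 or HADA 3, with adjusted p of 0.0589 and 0.0517. In all 5 called regions of Dusp1, control 3 was the tallest library and every HADA library lay below every control library. HADA 1 was the tallest HADA library at each of them.

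The local background around the cluster was itself high, for example 69.7, 64.1 and 137 in the controls and 58.6, 30.8 and 31.4 in the HADA libraries at chr17:26750458-26752254. At this region and at chr17:26756851-26757465 it fell more than the summits did. The rank of the fold over this background was higher in HADA at chr17:26750458-26752254 (0.91, adjusted p = 0.0387) and at chr17:26756851-26757465 (0.86, adjusted p = 0.0387), the opposite direction from the height. At chr17:26733405-26734217 and chr17:26754021-26754815 the rank differed by -0.23, adjusted p = 0.419 and by -0.12, adjusted p = 0.679. At the 5 called regions of Dusp1, control 3 was highest and HADA 2 and HADA 3 lowest, as in the neutrophil and the monocyte sums. The other 2 shared regions of Dusp1 did not have this order, although control 3 was the tallest library there too. One of them, chr17:26789508-26791660, was called lower without control 2 (-0.89, adjusted p = 0.0349). The part of neutrophils or monocytes in this result was not tested.

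Short sequences of blood cell factors were searched within 60 bp of the summits of the 14 called regions, on both strands. They were AP-1 (TGANTCA), C/EBP (TTGCNNAA), RUNX (TGTGGT) and PU.1 (GAGGAAGT), which lay at 2.75%, 4.58%, 9.34% and 1.91% of all shared regions. A match was found at 3 of the 14, and these windows are printed because they belong to the Dusp1 cluster and to the Klf9 intron region that was higher in HADA. The capitals mark the match, AP-1 in the first, PU.1 in the second and RUNX in the third, the latter pair read from the minus strand.
Dusp1, chr17:26754375-26754495, plus strand: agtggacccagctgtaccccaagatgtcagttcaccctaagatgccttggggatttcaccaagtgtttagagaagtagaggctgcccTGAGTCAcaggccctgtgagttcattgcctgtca
Dusp1, chr17:26757124-26757244, plus strand: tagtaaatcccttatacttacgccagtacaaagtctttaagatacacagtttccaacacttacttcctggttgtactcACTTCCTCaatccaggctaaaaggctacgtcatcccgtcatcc
Klf9, chr19:23128992-23129112, plus strand: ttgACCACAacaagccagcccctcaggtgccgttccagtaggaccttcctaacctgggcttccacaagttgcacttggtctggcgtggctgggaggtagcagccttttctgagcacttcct

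Zbtb16 encodes PLZF, a transcription factor that programmes innate-like lymphocytes and is strongly induced by glucocorticoids in many tissues. Its record spans chr9:48563141-48748664 on the minus strand. All 4 of its shared regions were lower in HADA, and at each of them every HADA library lay below every control library. At the start, chr9:48746891-48747907, relative heights were 0.655, 0.545 and 0.796 across control 1, 2 and 3 and 0.38, 0.26 and 0.309 across HADA 1, 2 and 3, with a log2 difference of -1.07 ± 0.25 (SE), limma adjusted p = 0.0119. The intron region chr9:48655961-48656875, 91028 bp downstream, had the largest difference of the 4, with heights of 0.776, 0.909 and 2.49 in the controls and 0.402, 0.195 and 0.407 in the HADA libraries and -1.93 ± 0.46 (SE), limma adjusted p = 0.0122. Control 3 was 2.49 there, against 0.776 and 0.909 in the other control libraries, and the call was lost without HADA 2.

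The most even difference at Zbtb16 was at chr9:48728209-48729080, 18926 bp downstream, where heights were 0.672, 0.527 and 0.551 in the controls and 0.207, 0.182 and 0.235 in the HADA libraries and differed by -1.49 ± 0.24 (SE), limma adjusted p = 0.00628. Control 1 was the tallest library there. The last intron region, chr9:48618641-48619302, differed by -1.26 ± 0.28 (SE), limma adjusted p = 0.00965. These were weak peaks, with pileups of 14 to 122, and the start region was not called over background (-0.70, adjusted p = 0.0683) or without HADA 2 (adjusted p = 0.06). After quantile normalization, chr9:48618641-48619302 was not called either (-0.84, adjusted p = 0.0611). None of the 4 passed by the rank of the fold, with adjusted p of 0.0585 to 0.875. The part of the cell mix in the Zbtb16 differences was not tested. The overlapping GRE pair lay in chr9:48651166-48651870, with pileups of 16 and 22 in control 1 and 3, no peak in control 2, and 19, 20 and 23 in HADA libraries.

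Sgk1 encodes the serum- and glucocorticoid-regulated kinase, which controls ion channels and cell survival. The canonical transcript is 5.24 kb long and starts 112482 bp into a record that spans chr10:21758083-21875802 on the plus strand. At the canonical start, chr10:21869909-21870880, relative heights were 3.88, 3.16 and 4.96 across control 1, 2 and 3 and 3.45, 3 and 3.01 across HADA 1, 2 and 3, and the groups overlapped, with a log2 difference of -0.32 ± 0.18 (SE), limma adjusted p = 0.17. Without control 2 it was called lower (-0.48, adjusted p = 0.0496). The region nearest to any annotated start, chr10:21757882-21758868 at the far 5′ end, also overlapped and differed by -0.10 ± 0.26 (SE), limma adjusted p = 0.769. Another start region, chr10:21868363-21869361, differed by -0.02 ± 0.20 (SE), limma adjusted p = 0.944.

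Away from starts, 3 regions of Sgk1 were lower in HADA, all in introns of the longer transcripts. The clearest was chr10:21765097-21766625, 105167 bp upstream of the canonical start, which holds the GRE printed above. Its heights were 0.69, 0.764 and 0.857 in the controls and 0.25, 0.312 and 0.321 in the HADA libraries, with groups well apart and a log2 difference of -1.39 ± 0.23 (SE), limma adjusted p = 0.00628, kept without any single library. At chr10:21822655-21823265 heights were 0.879, 0.745 and 0.878 in the controls and 0.446, 0.364 and 0.531 in the HADA libraries, and they differed by -0.91 ± 0.22 (SE), limma adjusted p = 0.0133. At chr10:21782821-21784889 they were 1.31, 1.24 and 2.16 in the controls and 0.913, 0.831 and 0.963 in the HADA libraries, with -0.75 ± 0.23 (SE), limma adjusted p = 0.0286. The call at this region was lost without any of the HADA libraries, and neither it nor chr10:21822655-21823265 was called over background, with adjusted p of 0.283 and 0.157. Without HADA 2, the call at chr10:21822655-21823265 was lost too, with adjusted p = 0.0685. None of the 3 calls held by the rank of the fold, with adjusted p of 0.111 to 0.174. The remaining shared region, chr10:21851198-21852786, overlapped between groups and differed by 0.23 ± 0.21 (SE), limma adjusted p = 0.381.

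Klf9, a transcription factor that follows cortisol and corticosterone closely in many cells, had 3 regions, each in all 6 libraries. Its start, chr19:23117708-23119172, had relative heights of 4.67, 3.85 and 4.73 across control 1, 2 and 3 and 4.33, 4.34 and 4.17 across HADA 1, 2 and 3 and a log2 difference of -0.04 ± 0.14 (SE), limma adjusted p = 0.826. The groups overlapped. Over background this start differed by 0.34. In the intron, chr19:23128444-23129775, 10865 bp downstream, heights were 0.362, 0.327 and 0.184 in the controls and 0.522, 0.558 and 0.543 in the HADA libraries, and every HADA library lay above every control library. The mean was 0.541 ± 0.0184 for HADA against 0.291 ± 0.0946 for control (SD, n = 3 each), with a log2 difference of 0.95 ± 0.29 (SE), limma adjusted p = 0.0289. The rank of the fold was also higher here (1.05, adjusted p = 0.0402), although the height call was lost without any one HADA library. Without control 3 the height difference was 0.60 (adjusted p = 0.0485).

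The region upstream of Klf9 that holds a GRE, chr19:23111567-23113637, also lies within the annotated gene 2410080I02Rik. Its heights were 1.34, 1.22 and 1.31 in the controls and 0.946, 0.805 and 1.05 in the HADA libraries, all HADA below all control. The difference of -0.47 ± 0.18 (SE), limma adjusted p = 0.054 missed the threshold, while the rank of the fold passed (-1.18, adjusted p = 0.0349). Without control 3 the height was called lower (-0.52, adjusted p = 0.0337). Control 3, with the lowest B cell sum, had the lowest height at the Klf9 intron region. The part of the cell mix in this result was not tested.

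Errfi1, an inhibitor of the EGF receptor that is induced by glucocorticoids, had a single shared region at its start, chr4:150939120-150940069. Relative heights there were 1.4, 1.78 and 1.78 across control 1, 2 and 3 and 1.53, 1.27 and 1.41 across HADA 1, 2 and 3, the groups overlapped, and the log2 difference was -0.23 ± 0.17 (SE), limma adjusted p = 0.291. Its only other region had a peak in control 3 alone, at a summit whose sequence has 7 copies in the genome.

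**Figure D5:**
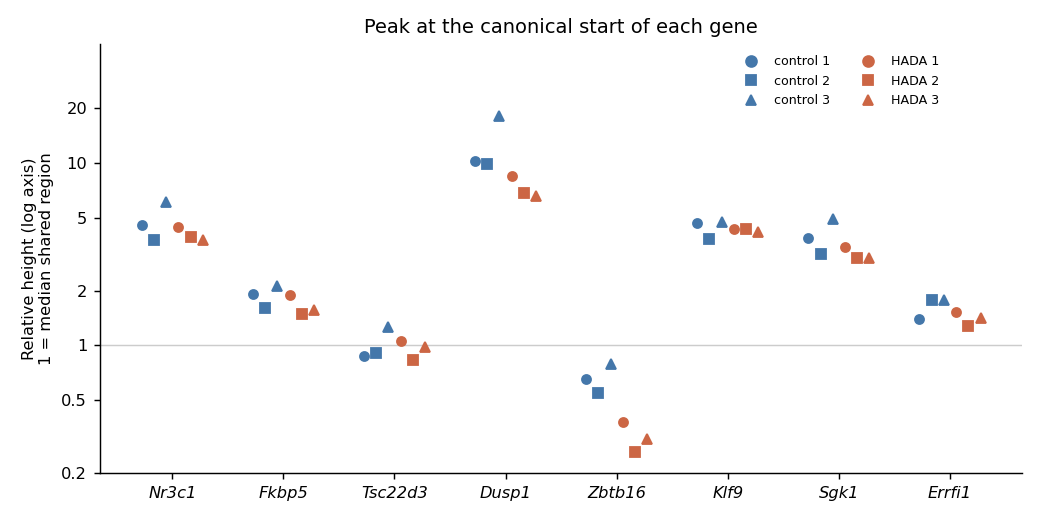
Relative height (vertical log axis, 1 is the median shared region) of the region closest to the canonical start of each of the 8 genes, with 1 point per library. HADA points lie below all control points at Dusp1 and Zbtb16, the 2 starts that were called, and overlap the control points at the other 6.

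The 8 genes together held 51, 45 and 47 peaks across control 1, 2 and 3 and 51, 48 and 48 across HADA 1, 2 and 3. Per 10000 peaks of a list, this was 12.3 ± 1.44 for control against 11 ± 0.505 for HADA (SD, n = 3 each), and the groups overlapped (exact permutation p = 0.2, two-sided). Without control 2 or without HADA 1 they did not overlap.

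Across the genome, GRE content overlapped between the groups. The element lay within 100 bp of 0.407%, 0.376% and 0.361% of the peaks in the controls and of 0.385%, 0.393% and 0.397% in the HADA lists (exact permutation p = 0.6, two-sided). Windows moved 1 kb away from the summits held it in 0.277% to 0.364% of cases. The 96 shared regions with a GRE near the summit had a library median height that overlapped between groups, with a log2 difference of 0.07 (exact permutation p = 0.3, n = 3 each), while the median of the 96 regions' own log2 differences was -0.12. Of these 96, 19.8% were higher and 28.1% lower in HADA, beside 18.4% and 24.5% of all shared regions. Of the 7 shared regions of the 8 genes with a GRE anywhere inside, 4 were lower, at Dusp1 and Sgk1, none was higher and 3 were not called, beside 8 lower and 2 higher of the 24 shared regions of these genes without one.

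Other genes of the pathway were read at their start regions, of which 22.0% were higher and 10.5% lower over all genes, as given above. The chaperones that hold the receptor, such as Hsp90aa1, Hsp90ab1 and Fkbp4, had 9 shared start regions over 8 genes, and none was called, with a median log2 difference of -0.10. The coregulators had 13 start regions over 12 genes, of which 1 was higher (7.69%) and none lower, with a median of 0.26. The called gene was Smarca4, the motor of the BRG1 remodelling complex, with heights of 3.21, 2.85 and 3.14 in the controls and 4.59, 3.84 and 4 in the HADA libraries and a difference of 0.43 ± 0.14 (SE), limma adjusted p = 0.0328. By the rank of the fold it was not called (-0.05, adjusted p = 0.805).

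A list of 5 genes, 4 of steroid supply and export and the mineralocorticoid receptor gene Nr3c2, had 8 start regions, of which 2 were higher (25%) and 1 lower (12.5%), shares close to those of all start regions. Hsd11b1, which regenerates active glucocorticoid inside cells, had 2 start regions. The one at chr1:192924304-192925685 was lower, with heights of 0.828, 0.782 and 1.22 in the controls and 0.38, 0.403 and 0.407 in the HADA libraries and -1.22 ± 0.23 (SE), limma adjusted p = 0.00716. The other, chr1:192945630-192947015, overlapped between groups and differed by 0.22 ± 0.20 (SE), limma adjusted p = 0.409. Hsd11b2, which inactivates it, was higher, at 0.776, 0.545 and 0.531 in the controls and 1.2, 1.14 and 1.3 in the HADA libraries and 0.99 ± 0.21 (SE), limma adjusted p = 0.00879. Abcb1a, a pump that exports steroids, was higher as well, at 0.466, 0.364 and 0.265 in the controls and 0.75, 0.987 and 1 in the HADA libraries and 1.35 ± 0.26 (SE), limma adjusted p = 0.00748. The groups did not overlap at the 3 called regions, and the remaining 5 start regions of the list were not called. By the rank of the fold Abcb1a passed (1.12, adjusted p = 0.0323), while the called regions of Hsd11b1 and Hsd11b2 did not, with adjusted p of 0.0944 and 0.117.

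Of 28 further genes induced by glucocorticoids, 24 had a start region in all libraries, with 2 of 27 regions higher (7.41%) and 5 lower (18.5%), beside 22.0% and 10.5% of all start regions, and a median of -0.12. The 4 with the smallest p were Mt1, Sesn1, Cebpd and Il1r2. Mt1, a metallothionein, was lower by height (-1.07 ± 0.21 (SE), limma adjusted p = 0.00748), and its rank of the fold was lower too (-1.10, adjusted p = 0.0307). Cebpd and Il1r2, a myeloid transcription factor and the interleukin-1 decoy receptor, were lower, with -1.56 ± 0.37 (SE), limma adjusted p = 0.0119 and -1.48 ± 0.35 (SE), limma adjusted p = 0.0123. Sesn1, a stress-response regulator of growth signalling, was higher at the start region chr10:41763093-41763998, with 0.71 ± 0.16 (SE), limma adjusted p = 0.011. Its other start region, chr10:41685651-41686889, overlapped between groups and was not called (0.28 ± 0.15 (SE), limma adjusted p = 0.145). These 3 calls were lost by the rank of the fold, with -0.14 for Cebpd, 0.33 for Il1r2 and 0.02 for Sesn1 and adjusted p of 0.639, 0.358 and 0.909.

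Of 12 inflammatory genes that the receptor is known to repress, 4 had a start region in all libraries and 3 of these were lower in HADA, none higher, beside 10.5% lower and 22.0% higher of all start regions. Il1b, which encodes interleukin-1β, had start heights of 2.72, 2.78 and 7.69 in the controls and 1.11, 0.74 and 0.519 in the HADA libraries and differed by -2.37 ± 0.41 (SE), limma adjusted p = 0.00637. Ptgs2, the inducible cyclooxygenase, differed by -1.83 ± 0.37 (SE), limma adjusted p = 0.0079, and Cxcl2, a neutrophil-attracting chemokine, by -1.96 ± 0.40 (SE), limma adjusted p = 0.00792. None of the 3 passed by the rank of the fold, with -0.04 for Il1b, -0.18 for Ptgs2 and 0.46 for Cxcl2 and adjusted p of 0.874, 0.574 and 0.102. Control 3 was the tallest library at all 3 and at Cebpd and Il1r2, and it had the highest neutrophil, monocyte, T cell and housekeeping sums. The part of the cell mix in these differences was not tested.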

How the data were processed

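The members and gene lists were chosen with earlier results of these data known. Per the labels, the study's methods and the submitters' processing notes, reads were trimmed with Trimmomatic, aligned to GRCm39 with Bowtie2, freed of duplicates with Picard and called with MACS2, each library by itself. MACS2 options and any shift for Tn5 are not given in the sources used here. The deposited peak lists hold a fold (a ratio of summit over local background), −log10 p-values and −log10 q-values, and a score derived from the q-value. From the deposited fold and −log10 p-value, the whole-number summit pileup and the local background were solved, and the solved pairs returned the deposited values for 100% of peaks. Tests on simulated data recovered the pileups and the changed regions they were made with.

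Peaks on the 21 main chromosomes (GENCODE mouse version 39, Ensembl canonical transcripts) that shared 1 bp were merged. Where every library had a peak, median-centred log2 pileups were compared with limma 3.58.1 (trend, Benjamini-Hochberg adjustment over all such regions). Single values per library were compared by exact permutation. A region's start was any annotated start within 1 kb. Named were all member starts, called or group-only regions, up to 4 called genes of each list, and 3 genes like Nr3c1; other start regions and GRE regions were chosen after their values were seen. Symbols of all 146 list entries matched the annotation. The value of 1 marker gene is not reported here by itself. The replicate numbers of the labels are not said to mark a shared animal or batch, and no block was used.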

Additional observations from a re-analysis of the deposited data

How the results depend on the processing

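Member regions higher in HADA numbered 2 and lower ones 12. With a −log10 q of at least 5 or of at least 10, a summit pileup of at least 10, or regions built from summits within 250 bp, 1 was higher. Over all regions, these fits in turn called 4026 of 20572, 3192 of 16340, 4387 of 23383 and 3839 of 20704 higher. The main fit called 4417 of 23970 higher. Lower regions fell to 7 by the rank of the −log10 q and to 1 by the rank of the fold. Over all 23970 regions, 4244 and 1396 were lower by these ranks, beside 5862 in the main fit. Within 3 kb of the 5′ end, 1 was higher and 1 lower. With 1 library left out, 1 to 3 were higher and 6 to 14 lower. The count of 1 came without HADA 1, HADA 2 or HADA 3, the 6 without HADA 2. Over all regions, higher calls in these fits were 2296 of 24589, 1379 of 24615 and 2037 of 24491, and lower calls without HADA 2 were 2947. These fits assume that libraries of a thinned group vary like the others.

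Regions with a peak in HADA libraries alone numbered 2. They were 1 with equal numbers of strongest peaks, 0 within 3 kb of the 5′ end, and 2 to 3 with 1 library left out. Control-only regions, at 0, became 1 with a −log10 q of at least 10 and 2 with regions built from summits, and ranged from 0 to 3 with 1 library left out, with 3 without control 2 and 1 each without control 3, HADA 1 or HADA 3.

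Called start regions of the pathway lists numbered 14, and were 24 over background, 25 after quantile normalization, 3 by the rank of the fold and 7 to 16 with 1 library left out, the 7 without HADA 2. Member peaks per 10000 kept a lower mean in HADA in every alternative run, with 1 library left out by 0.65 to 2.10. The groups were apart without control 2 (-2.10), without HADA 1 (-1.65) and within 3 kb of the 5′ end (-0.33).

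The log2 height difference of regions with a GRE, 0.07, changed sign with a −log10 q of at least 5 (-0.21) or 10 (-0.25), with equal numbers of strongest peaks (-0.16) and with the strict spelling, which left 1 region (-1.27). Within 50 bp of the summit it was 0.27, with the groups apart (exact permutation p = 0.1). With 1 library left out it ranged from -0.0581, without HADA 1, to 0.0789. The difference in the share of peaks with a GRE, 0.0102 percentage points, was -0.00942 with a −log10 q of at least 10, -0.00098 with equal numbers of peaks, and from -1.2e-05, without control 3, to 0.0231, without control 1, with 1 library left out. Without control 1 the groups did not overlap (exact permutation p = 0.1, the smallest possible). No called result rests on these values.

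Signs changed at named regions as follows. By the rank of the fold, Dusp1 differed by 0.86 and 0.91 in the upstream cluster, 0.65 at the canonical start and 0.0598 at the far start, Sgk1 by 0.24 at the far start and 0.33 at chr10:21868363-21869361, and Tsc22d3 by -0.10 at its short transcripts. By the rank of the −log10 q, the Klf9 start differed by 0.0703, and the same Sgk1 regions by 0.18 and 0.23. Over background, uncalled starts turned positive at 0.14 (Nr3c1), 0.19 (Fkbp5), 0.30 (canonical, Tsc22d3), 0.0483 (far, Dusp1), 0.34 (Klf9), 0.28, 0.36 and 0.0563 (Sgk1) and 0.15 (Errfi1). After quantile normalization, the Klf9 start was at 0.11 and the far Sgk1 start at 0.18. The cause of these changes was not tested, beyond the median of 0.34 that all regions take on the background scale. With 1 library left out, uncalled starts crossed zero at Tsc22d3 (canonical, -0.16 to 0.0346; short transcripts, -0.0416 to 0.25), Klf9 (-0.13 to 0.0136) and Sgk1 (far, -0.23 to 0.0876; chr10:21868363-21869361, -0.16 to 0.11).

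With the replicate block of the labels' numbers, 2 regions were higher and 12 lower, and it changed no call of a member region. Same-numbered libraries deviated from their group means with correlations of -0.08, 0.08 and -0.38, beside -0.47 to 0.49 for libraries of unlike number. With so few libraries in a group, these values cannot show whether the numbers mark a shared animal or batch.

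A design of 3 libraries against 3 limits the exact tests to a p of 0.1. Absence from a list is not absence of open chromatin, since a peak must clear the local background and a minimum width. Heights are single summits, not counts over a region. Peak heights at B cell, neutrophil and monocyte marker genes differed between the groups, and the cell shares of these libraries were not measured here. Accessibility per cell and cell shares therefore cannot be told apart for any member.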
